A study of Mus musculus with 2 samples.

Results

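The TEAD genes, the coactivators that bind their proteins and 4 well-known target genes were followed across mouse epidermis with and without induced SOX11, a transcription factor of the SOXC group. They were taken by name as Tead1, Tead2, Tead3, Tead4, Yap1, Wwtr1, Ctgf, Cyr61, Ankrd1 and Amotl2, and every non-control array probe that carried one of these gene names was kept. This gave 13 probes of 10 genes, out of 55676 probes with 34820 different gene names. Control pups carried K14-rtTA, a doxycycline-dependent activator driven by the keratin 14 promoter and hence made in keratin 14 positive cells. SOX11-induced pups were littermates that carried K14-rtTA together with TRE-Sox11-FLAG, the responder transgene that gives FLAG-tagged SOX11. All pups were FVB/N at postnatal day 4.5, and all received doxycycline for 12 h before the epidermis was peeled from the back skin with dispase. Each of 2 littermate pairs was measured on its own 2-colour array, with control RNA in Cy3 (green) and SOX11-induced RNA in Cy5 (red), so a positive log2 ratio means a brighter signal with SOX11. The dyes ran the same way on both arrays, and an effect of the dye on a probe and an effect of the transgene cannot be told apart within that probe.

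TEAD proteins bind DNA but need a partner to switch genes on, and the best known partners are YAP (gene Yap1) and TAZ (gene Wwtr1). In the Hippo pathway, the kinases encoded by Stk3 and Stk4 act through the LATS kinases to phosphorylate YAP and TAZ, which keeps them out of the nucleus. When the kinases are quiet, YAP and TAZ enter the nucleus, bind TEAD proteins and raise genes such as Ctgf and Cyr61, and in skin YAP is known for its role in the growth of basal keratinocytes and in wound repair. An array measures RNA only, so neither the phosphorylation nor the location of YAP or TAZ was measured here.

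On the 2 arrays, the software marked 37.5% and 38.7% of the 59305 non-control spots as clearly brighter than background for the control, and 40.6% and 42.6% for SOX11. Both probes of Sox11 were not well above background in any of the 4 channels, with mean log2 ratios of -0.12 and -0.22, so they did not serve as a check of the labels. Of the 13 probes of interest, 11 were well above background in all 4 channels, and none was saturated. The exceptions were a Tead1 probe that was dim in both controls and the Ankrd1 probe, which was dim in all 4 channels. Changes are log2 ratios after background correction and loess, a smoothing that centres each array on its bulk of probes, and errors are the SD of 2 pairs. Adjusted p-values come from a limma fit over all probes with Benjamini-Hochberg adjustment, and a probe was called when its adjusted p was under 0.05 and its mean log2 ratio passed 1.5. They combine the spread between these 2 pairs with a prior spread learned from all probes, which gives 8.14 of the 9.14 degrees of freedom. Both pairs were hybridised on 1 slide.

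Tead2 was the member that moved most. Both of its probes were called, with mean log2 ratios of 2.38 and 2.22, which are 5.20-fold and 4.66-fold. Tead1 rose less, by 0.81 and 0.72 at its well-measured probes, and none of the other 8 genes passed an adjusted p of 0.05. Among these, the means ran from -0.18 for Ctgf to 0.53 for Amotl2. In total, 2 of 13 probes were called higher, and among all probes tested that share was 0.365% (203 of 55676). At an adjusted p under 0.05 alone, 4 of 13 probes were higher and 0 lower, where the shares among all probes were 2.9% higher and 1.35% lower. Those shares include dim probes. In a fit over only the 21782 probes above background, 11.6% passed in either direction, as did 4 of the 12 probes of interest among them. At an unadjusted p under 0.05, 9 of 13 were past the threshold, each of them higher, compared with 11.9% of all probes higher at that level. The 9 included all 3 Tead1 probes and both Tead2 probes, and the rest were those of Yap1, Wwtr1, Cyr61 and Amotl2. By gene name, 16% of all names had a probe higher at that level. Both of these shares include dim probes.

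The Tead2 probes are shown because they carry the largest change, and because their place on the transcript bears on how far they count as separate readings. Probe 1 lies at mm9 chr7:52488742-52488801 and probe 2 at chr7:52488930-52488989, both on the plus strand and 188 bases apart. The last 30 of the 60 bases of each are given below, 5′ to 3′, with the polyadenylation signal AATAAA in capitals where it occurs.
Tead2 probe 1: ccagcttggggtagggtgaagtgggacctg
Tead2 probe 2: tgtttgaaggagAATAAAgctatttttacc
Probe 2 holds AATAAA, the hexamer that marks the end of most messenger RNAs, and probe 1 lies just upstream of it. The array annotation assigns both probes to the same transcript, so they are not independent readings. That they lie at its 3′ end was read from the hexamer alone. Between probes of different Tead genes, the longest run of identical bases was 7 of 60 over 17 probe pairs. Where a position is given here, it is that of the array files on mm9, and its place in an exon or intron was not annotated.

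Tead2 probe 1 had normalised signals, on the log2 scale, of 7.83 and 7.82 in the controls and 10.45 and 9.96 with SOX11. At probe 2 the controls gave 8.58 and 8.62, and the SOX11-induced samples 11.10 and 10.54. The 2 controls lay within 0.1 log2 units of each other at both probes, while both SOX11-induced samples lay far above them, pair 1 more so than pair 2. The log2 ratios were 2.62 in pair 1 and 2.14 in pair 2 at probe 1 (mean 2.38 ± 0.34 SD, n = 2, limma adjusted p = 0.000165). At probe 2 they were 2.52 and 1.92 (mean 2.22 ± 0.42 SD, n = 2, limma adjusted p = 0.000281). The 95% intervals of the means were 2.00 to 2.76 and 1.82 to 2.62, both wholly above the threshold of 1.5. Before any correction, the spots of probe 1 read 157.8 and 177.2 scanner units in the control channel over local backgrounds of 21 and 24. In the SOX11 channel the same spots read 1826 and 1632 over backgrounds of 55 and 57. Raw channels differ in brightness before normalization. At Tead4 in pair 1, 641.4 scanner units in green stood against 1463 in red for a normalised log2 ratio of 0.18.

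Tead1 was measured by 3 probes over 7640 bases of mm9 chromosome 7. Probe 3, the brightest (chr7:120049844-120049903), had control signals of 10.44 and 10.41 on the log2 scale and SOX11 signals of 11.16 and 11.29. The groups did not overlap, and the log2 ratios of 0.72 and 0.89 gave a mean of 0.81 ± 0.12 (SD, n = 2, limma adjusted p = 0.0207), a 1.75-fold rise. Probe 1 gave 0.65 and 0.80 (mean 0.72 ± 0.10 SD, n = 2, limma adjusted p = 0.0316), with signals of 6.63 and 6.46 in the controls and 7.28 and 7.26 with SOX11. At probe 2 the controls were not well above background, and its log2 ratios of 0.48 and 0.40 did not pass the test (adjusted p = 0.137). All 3 probes gave a positive ratio in both pairs.

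Tead3 and Tead4 encode the remaining TEAD proteins. The Tead3 probe (chr17:28468622-28468681) gave log2 ratios of 0.37 and 0.01, from control signals of 8.28 and 8.49 and SOX11 signals of 8.65 and 8.50 (mean 0.19, 95% interval -0.17 to 0.55, adjusted p = 0.536). Its groups were barely apart, since in pair 2 both channels were almost equal. The Tead4 probe (chr6:128177161-128177220) gave 0.18 and 0.22, with controls at 9.94 and 9.88 and SOX11 at 10.11 and 10.09 (mean 0.20, 95% interval -0.14 to 0.53, adjusted p = 0.487). Tead4 was the steadiest of the TEAD genes between pairs, at an SD of 0.03, yet its difference did not pass the test. The upper ends of both intervals lay under 0.6 log2 units, below the lower ends of the Tead2 intervals. Differences between the Tead genes were not tested as such, and signals of different probes cannot be ranked as levels.

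**Figure D1:**
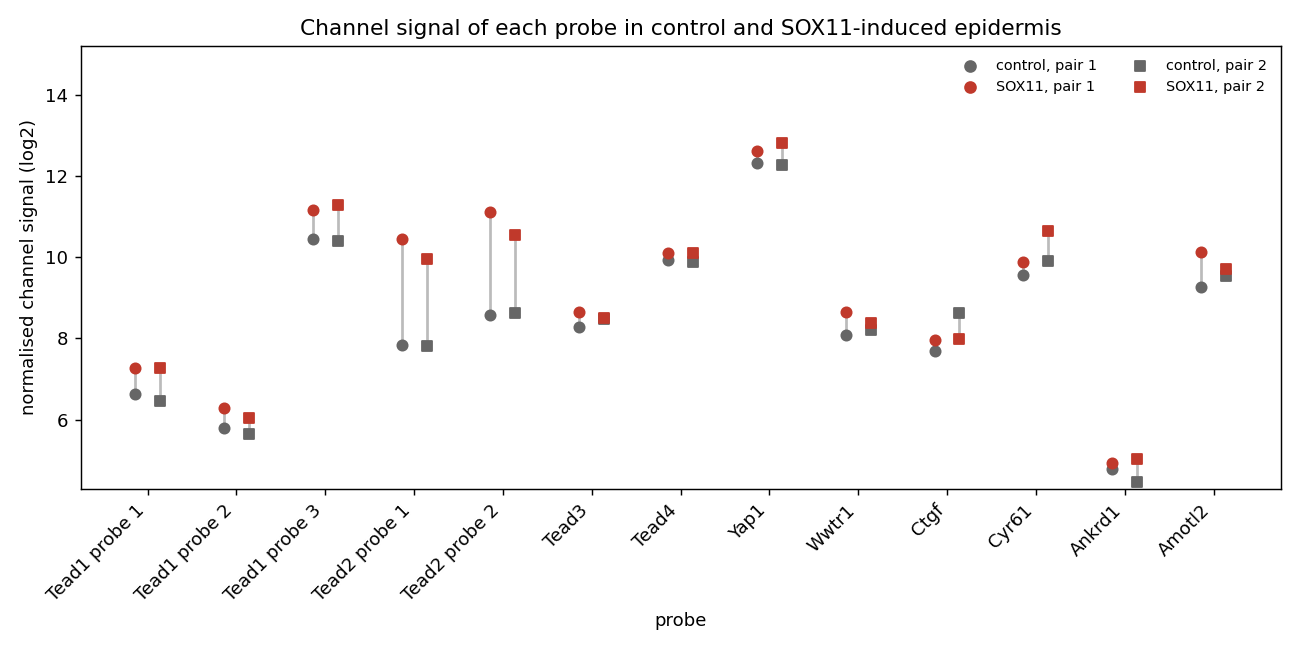
Normalised channel signal (log2, vertical axis) of each of the 13 probes in the control (grey) and the SOX11-induced (red) sample of pair 1 (circles) and pair 2 (squares), with a line joining the samples of a pair. The 2 Tead2 probes show the longest lines, from about 7.8 to 10.45 and 9.96 at probe 1, while the Ctgf line runs downward in pair 2. Heights of different probes are not comparable.

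Neither coactivator gene passed the test. The Yap1 probe (chr9:7932025-7932084) had control signals of 12.31 and 12.26 and SOX11 signals of 12.61 and 12.80. Its log2 ratios of 0.30 and 0.54 gave a mean of 0.42 ± 0.17 (SD, n = 2, limma adjusted p = 0.165), so the groups did not overlap but the adjusted test was not passed. Wwtr1 (chr3:57259999-57260058), which encodes TAZ, gave 0.58 and 0.17 (mean 0.38 ± 0.28 SD, n = 2, limma adjusted p = 0.229) from controls of 8.08 and 8.20 and SOX11 signals of 8.66 and 8.38. The 95% intervals were 0.07 to 0.77 for Yap1 and 0.01 to 0.74 for Wwtr1.

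Of the target genes, Cyr61 encodes a secreted matrix protein that is also named CCN1. Its probe (chr3:145310187-145310246) gave 0.33 and 0.73, with controls at 9.55 and 9.92 and SOX11 at 9.88 and 10.64. The mean was 0.53 ± 0.28 (SD, n = 2, limma adjusted p = 0.108), and the SOX11 signal of pair 1 lay under the control signal of pair 2, so the groups overlapped across pairs. Ctgf encodes the related protein CCN2, and its probe (chr10:24318281-24318340) was higher with SOX11 in pair 1 and lower in pair 2, at 0.29 and -0.65. The controls read 7.68 and 8.63 while the SOX11-induced samples read 7.97 and 7.98, so it was the controls that stood apart between pairs. The mean was -0.18 ± 0.66 (SD, n = 2, limma adjusted p = 0.674), and its SD was larger than that of 97.4% of the probes above background.

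Amotl2 encodes a junction protein that binds YAP and is itself a known target of it. Its probe (chr9:102635025-102635084) gave 0.87 and 0.19 (mean 0.53 ± 0.48 SD, n = 2, limma adjusted p = 0.150), with controls at 9.25 and 9.52 and SOX11 at 10.12 and 9.71. The groups did not overlap, and most of the rise was in pair 1. With 2 values a group, a lack of overlap says little. Its share among all probes was not counted, here or for Tead1 and Yap1. Ankrd1, a nuclear cofactor best known from heart muscle, was dim everywhere (chr19:36186809-36186868), and no fold is given for it. Its normalised signals were 4.77 and 4.45 in the controls and 4.92 and 5.02 with SOX11, against log2 ratios of 0.15 and 0.57.

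**Figure D2:**
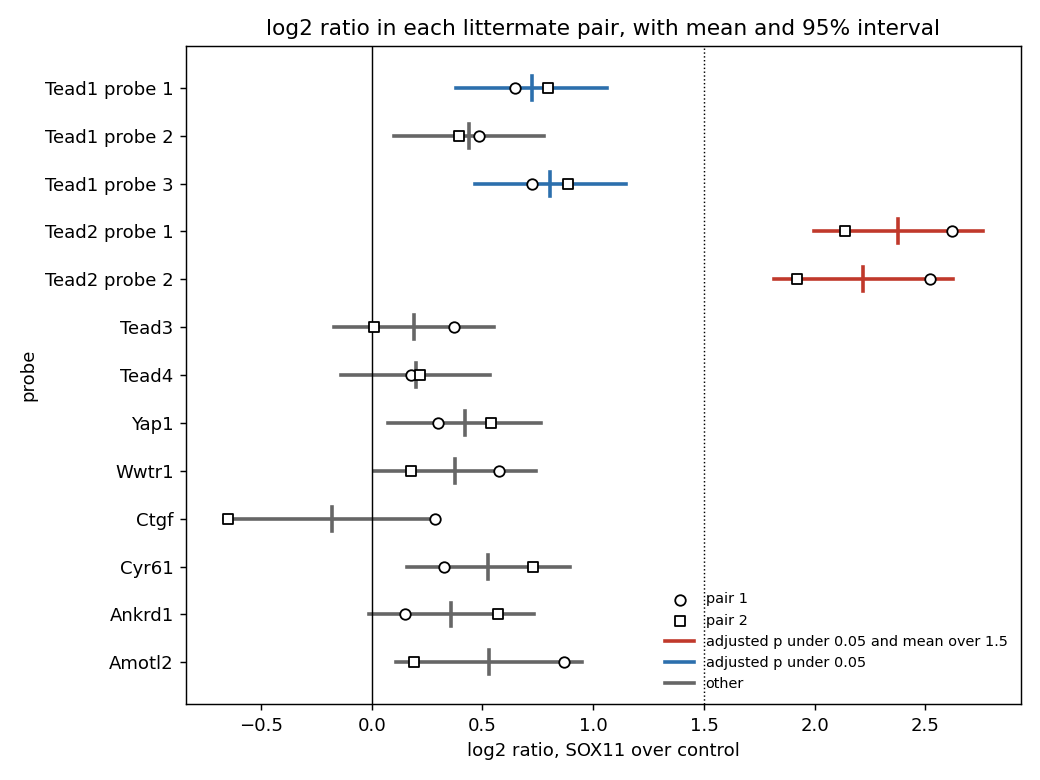
log2 ratio of SOX11 over control (horizontal axis) for each probe in pair 1 (circle) and pair 2 (square), with the mean (tick) and its 95% interval from the limma fit (bar), and a dotted line at 1.5. Both Tead2 intervals lie to the right of 1.5, the Tead1 intervals of probes 1 and 3 lie between 0.38 and 1.15, and the Ctgf interval spans -0.67 to 0.30.

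Across the 13 probes, 12 were higher with SOX11 in both pairs and none was lower in both, and the exception was Ctgf. Among all probes, 33.4% were higher in both pairs, and 41.1% of the 21782 that stood above background for 1 sample or both of each pair. The median of the mean log2 ratios was 0.44 over the 13 probes and 0.42 without Tead2. It was 0.01 over all probes and 0.04 over those above background. These shares depend on how the arrays are centred. When each array was centred on its median instead of by loess, the median of the probes above background moved to 0.53. Relative to that shift, Tead2 stood at 2.44 and 2.31, Tead1 probes 1 and 3 at 0.59 and 0.94, and Ctgf at -0.18. With the scanner's own processed signals, the Tead2 means were much the same at 2.45 and 2.31, but no probe of the array passed the adjusted test, and the Tead2 adjusted p was 0.244.

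**Figure D3:**
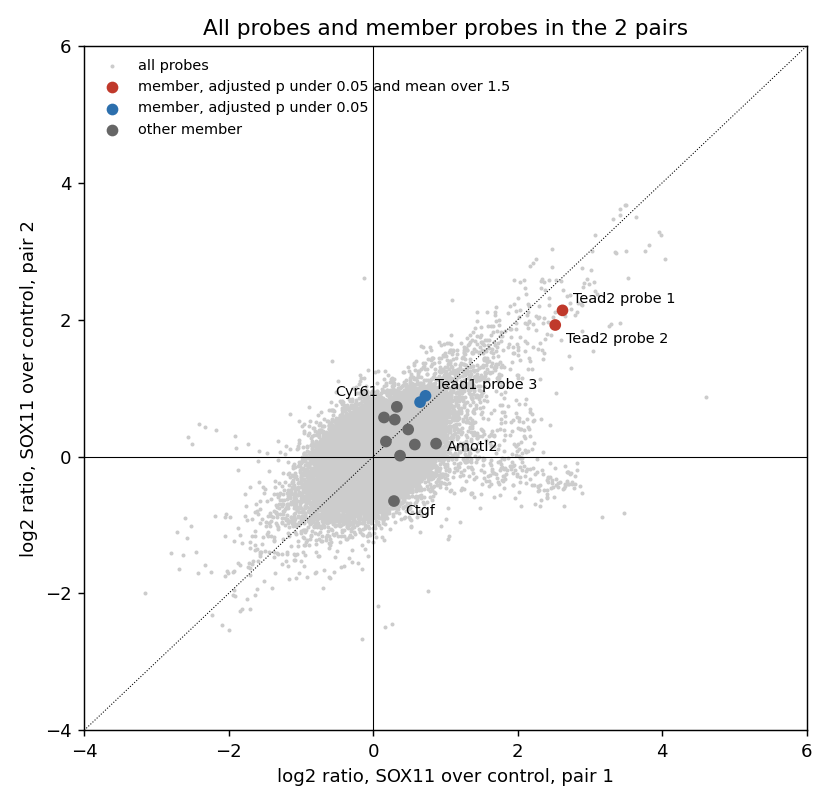
log2 ratio of SOX11 over control in pair 1 (horizontal axis) against pair 2 (vertical axis) for all probes (light grey) and for the probes of interest (coloured by the test), with a dotted line of equality. Both Tead2 probes lie among the probes with high ratios in both pairs, below that line, since their ratios were larger in pair 1. Tead1 probe 3 lies at 0.72 and 0.89, Ctgf at 0.29 and -0.65, and 1 probe of the array lies beyond the axes.

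**Figure D4:**
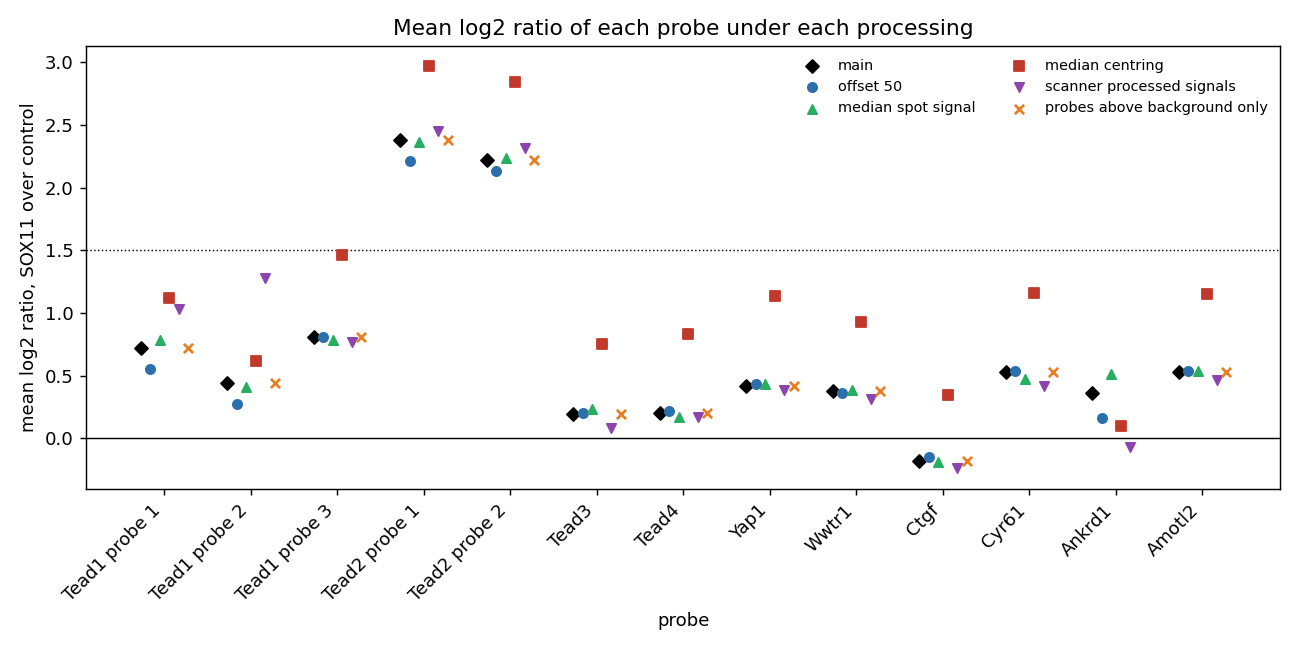
Mean log2 ratio of SOX11 over control (vertical axis) for each probe under 6 kinds of processing (symbols), with a dotted line at 1.5. Tead2 stays between 2.13 and 2.97 under all 6, and median centring raises every probe except Ankrd1. The log2 ratios of the study's own table, which were close to those from median spot signal, are not drawn.

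Promoter sequences were read for the 7 of the 10 genes matched in the RefSeq promoter table (Tead1, Tead4 and Ctgf were not matched). The entries, on GRCm38.p6, gave 10 windows of the 250 bases before an annotated start, with more than 1 start for Tead3 and Wwtr1. Both strands were searched for the SOX motifs ACAAAG and AACAAT, the TEAD motif GGAATG and the AP-1 motif TGANTCA, and no matches overlapped each other. The windows of Tead2, which moved most, and of 3 of the target genes are given below on the strand of the gene, with matches in capitals, where CATTCC is the TEAD motif on the opposite strand.
Tead2, chr7:45215542-45215791, plus strand: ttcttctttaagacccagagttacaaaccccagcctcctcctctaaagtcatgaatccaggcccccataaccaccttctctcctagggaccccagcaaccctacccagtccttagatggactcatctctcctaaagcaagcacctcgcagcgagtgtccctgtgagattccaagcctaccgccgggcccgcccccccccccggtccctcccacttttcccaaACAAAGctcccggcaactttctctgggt
Cyr61, chr3:145649986-145650235, minus strand: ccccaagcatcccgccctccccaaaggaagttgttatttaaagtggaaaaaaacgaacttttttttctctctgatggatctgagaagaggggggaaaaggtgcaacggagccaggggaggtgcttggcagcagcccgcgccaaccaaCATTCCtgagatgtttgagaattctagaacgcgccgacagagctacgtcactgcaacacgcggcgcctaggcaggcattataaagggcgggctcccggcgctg
Ankrd1, chr19:36119845-36120094, minus strand: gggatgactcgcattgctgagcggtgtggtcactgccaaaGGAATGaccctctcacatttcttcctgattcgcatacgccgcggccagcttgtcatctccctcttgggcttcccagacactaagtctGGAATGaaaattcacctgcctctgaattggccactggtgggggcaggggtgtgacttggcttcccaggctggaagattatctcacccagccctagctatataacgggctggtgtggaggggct
Amotl2, chr9:102717554-102717803, plus strand: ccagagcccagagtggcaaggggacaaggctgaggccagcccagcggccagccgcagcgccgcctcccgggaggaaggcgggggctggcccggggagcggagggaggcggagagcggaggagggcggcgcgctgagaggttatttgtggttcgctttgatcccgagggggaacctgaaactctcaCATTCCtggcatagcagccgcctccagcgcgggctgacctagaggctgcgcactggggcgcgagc
The Tead2 window held ACAAAG once, beginning 28 bases before the start, and no other motif. It was the only one of the 7 genes with ACAAAG, which 16.5% of 32851 RefSeq windows of this length hold. GGAATG was found in 6 of the 7 genes and in 8 of 10 windows, compared with 12.6% of all windows. It began 103 bases before the start in Cyr61, 210 and 123 bases before it in Ankrd1, and 65 bases before it in Amotl2. Yap1, Wwtr1 and Tead3 held it too. AACAAT and TGANTCA, which 9.42% and 6.75% of all windows hold, were not in these windows. These are matches of letters only, no binding was measured in these samples, and windows of 1 gene overlap.

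The 5 genes whose brightest probe had the pair of log2 ratios nearest to that of the brightest Tead2 probe were D430019H16Rik, Nav1, Avil, Capn6 and Snn, out of 16340 genes above background. Nav1 encodes a protein of growing microtubule ends and gave 2.49 and 2.04, at a distance of 0.13 log2 units over 2 pairs. Capn6, a calpain family member, gave 2.35 and 1.96, and Snn 2.41 and 1.79, both at a distance of 0.17. For D430019H16Rik and Avil both control channels were dim, so their ratios and their place in the order are not firm. With 2 values a gene, such a likeness says only that the ratios were of similar size.

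Of the 32 other Hippo pathway genes looked at, 6 had a probe that rose at an adjusted p under 0.05 (18.8%) and none had one that fell. One of the 6, Fat4, was dim in all channels, which leaves 5 with a signal above background. Among all gene names, those with only dim probes included, the shares were 3.95% higher and 1.94% lower. At an unadjusted p under 0.05, 8 of the 32 had a higher probe and 4 a lower one, where the shares among all gene names were 16% and 13.2%. The median of the brightest probes was 0.05, against 0.03 over all genes above background. In the kinase cascade, 1 of 11 genes rose. That was Map4k4, a kinase that can act on LATS beside Stk3 and Stk4. Its brighter probe gave a mean of 1.03 (adjusted p = 0.00615) and the other 0.84 (adjusted p = 0.0179). At its brighter probe the controls read 11.18 and 11.45 and the SOX11-induced samples 12.25 and 12.45. The core kinases did not pass the adjusted test, with 0.17 for Stk3, 0.14 for Stk4, -0.24 for Lats1 and 0.46 for Lats2 at their brightest probes. The other Lats2 probe, also well above background, gave 0.63 and 0.52 (mean 0.58, limma adjusted p = 0.0671). The lowest value of this list was -0.42, at the dimmest of 3 Mob1a probes, while the brightest gave -0.015.

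Among 17 upstream and junction regulators, 4 passed an adjusted p of 0.05 with a higher signal, 3 of them above background. Dchs1, an atypical cadherin and ligand of Fat4, was called, with log2 ratios of 1.73 and 1.36. Its controls were not well above background, so an "at least" fold is given, 2.74 with this processing (limma adjusted p = 0.00112). Folds from the mean ratio were lower in other processing, at 2.02 with an offset of 50 and 2.71 with median spot signal. The figure of 2.74 is therefore no lower limit across settings. The Dchs1 mean of 1.55 was just past the threshold. Dchs1 was no longer called with an offset of 50 (1.02), with median spot signal (1.44) or in the study's table (1.44). Its adjusted p stayed under 0.05 in these. Fat4 itself was dim in all channels, and its ratios of 0.82 and 0.69 (limma adjusted p = 0.0268) are given without a fold. Amot, which binds YAP as Amotl2 does, gave 1.26 and 1.12 (mean 1.19 ± 0.09 SD, n = 2, limma adjusted p = 0.00306), with controls at 5.60 and 5.92 and SOX11 at 6.85 and 7.04. One of its 2 controls was not well above background, and the mean was 0.81 with an offset of 50 and 1.97 with the scanner's processed signals. Ctnna1, the α-catenin of cell junctions, gave 1.02 and 0.65 (mean 0.83 ± 0.26 SD, n = 2, limma adjusted p = 0.0231). Wwc2, a KIBRA family gene, had the lowest mean at -0.47 (adjusted p = 0.118), and Nf2 stood at 0.06.

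Vgll proteins bind TEAD in place of YAP. Vgll4, which acts as an antagonist of YAP, gave 1.40 and 1.25 (mean 1.32 ± 0.11 SD, n = 2, limma adjusted p = 0.00179), a 2.50-fold rise from controls of 6.48 and 6.86 to 7.88 and 8.11. Vgll3 had the lowest mean of the 4 genes, -0.58 (adjusted p = 0.0658), and Vgll1 and Vgll2 were dim everywhere.

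Of 18 other genes known as YAP and TAZ targets, 2 (Lats2 and Ptpn14) are also in the pathway lists. At an adjusted p under 0.05, 3 of the 18 rose and none fell, where the shares among all gene names were 3.95% and 1.94%. Those shares include names with only dim probes, while 14 of the 18 had controls above background on both arrays at their brightest probe. The median of the 18 was 0.05, against 0.03 over all genes above background. At an unadjusted p under 0.05, 5 had a higher probe and 4 a lower one, 3 of the latter above background. Among all gene names those shares were 16% and 13.2%. Rbms3, an RNA-binding protein gene, gave 0.96 at its brightest probe (adjusted p = 0.0162), while its other probes gave 0.67 and, where it was dim, -0.03. Arhgef17 gave 0.92 (adjusted p = 0.0216) and Gadd45a, a stress response gene, 0.87 (adjusted p = 0.0179). For these 3 genes the ratio was larger in pair 1 than in pair 2. Tgfb2, a growth factor gene, was lowest at -0.66, with -0.33 and -0.998 in the pairs and an adjusted p of 0.0830. The receptor kinase gene Axl gave -0.55 and F3, which encodes tissue factor, -0.49, and neither passed the test.

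**Figure D5:**
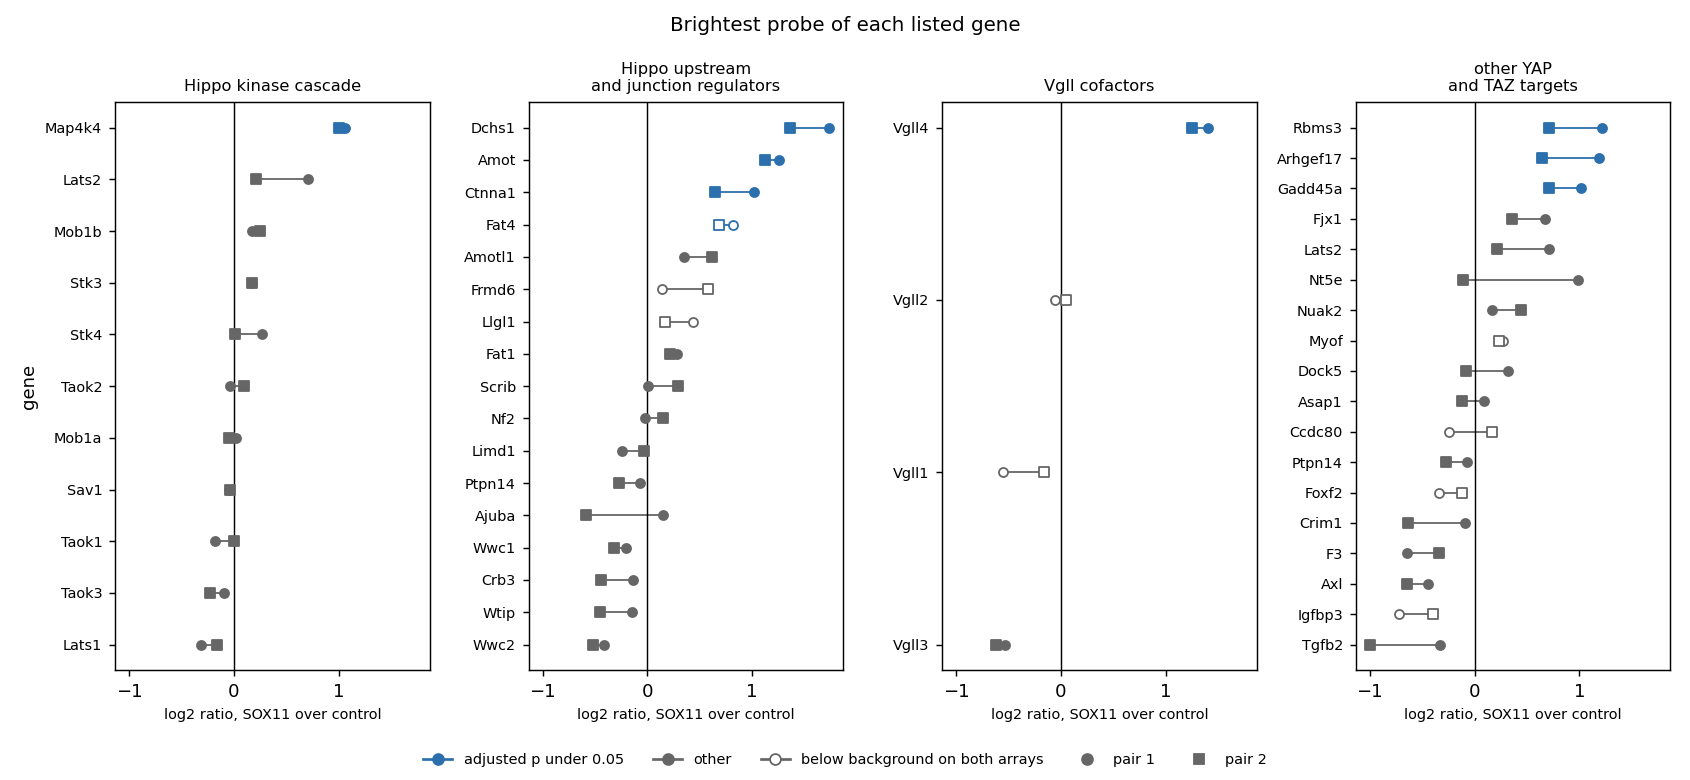
log2 ratio of SOX11 over control (horizontal axes) in pair 1 (circles) and pair 2 (squares) at the brightest probe of each gene of the pathway and target lists, ordered by the mean. The genes in blue had an adjusted p under 0.05 at that probe, open symbols mark probes below background on both arrays, and each list has genes on both sides of 0. Vgll4, Dchs1, Amot and Map4k4 are the highest of those with a signal above background.

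Markers of the cells in the tissue were read from the same arrays. All 6 basal and all 6 suprabasal keratinocyte markers were well above background in the controls. In the basal list, 5 of 6 brightest probes were lower in both pairs. Col17a1, a hemidesmosome collagen, fell by 1.11 (adjusted p = 0.00728), while 1 Itga6 probe rose by 3.38 and the brighter one gave -0.01. In the suprabasal list the means ran from -0.36 for Dsg1a to 0.62 for Krt1, 5 of 6 were higher in both pairs, and none passed the test. The summed signal of the basal list was 236051 and 205864 in the controls and 203693 and 140708 with SOX11, and that of the suprabasal list 446932 and 359141 against 568374 and 556506. Their part in the values of the members was not tested. Of the endothelial, and smooth muscle and pericyte markers, 4 of 6 and 3 of 5 were dim everywhere, Cdh5 and Myh11 included, with means from -0.16 for Kdr to 0.35 for Tek and from -0.18 for Myh11 to 0.40 for Tagln. The summed endothelial signal was 846 in the control and 783 with SOX11 in pair 1, and 818 and 783 in pair 2. For the smooth muscle and pericyte list it was 315 and 543 in pair 1, and 475 and 418 in pair 2. Tagln itself gave 1.11 in pair 1 and -0.31 in pair 2 (limma adjusted p = 0.446). In the dermal fibroblast list Dcn fell by 0.79 (adjusted p = 0.0276). The lowest mean was that of Postn at -0.83, with -1.59 in pair 1 and -0.07 in pair 2 (limma adjusted p = 0.149). Fbln1 passed the test at 2 of 3 probes, with means of 0.64 and 0.80, while its brightest probe gave 0.62 (limma adjusted p = 0.0514). The collagen genes Col1a1, Col1a2 and Col3a1 gave -0.03, -0.17 and -0.17 in pair 1. In pair 2 they gave 0.77, 1.14 and 0.92, and none of them passed the test. The summed signal of the fibroblast list was 2252 in the control and 1878 with SOX11 in pair 1, and 1909 and 2466 in pair 2. Lum and Pdgfra were dim. Immune markers ran from -0.50 for Cd74 to 0.14 for Lyz2. Their sums were 15015 in the control and 11390 with SOX11 in pair 1, and 5525 and 4144 in pair 2. Melanocyte markers ran from 0.14 for Pmel to 0.64 for Tyrp1. Their sums were 9624 in the control and 12637 with SOX11 in pair 1, and 7488 and 7235 in pair 2.

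The 7 hair shaft and matrix genes differed between pairs, with a median of 2.12 in pair 1 and -0.19 in pair 2. Their means ran from 0.41 for Hoxc13 to 1.02 for Krt31, and none passed the test. The summed signal was 21989 in the control of pair 1 and 176894 in that of pair 2, against 96358 and 139185 with SOX11. Amotl2, Ctgf, Wwtr1, Tead3 and Tead2 were also higher in pair 1 than in pair 2, as was Tead1 probe 2, while Tead1 probes 1 and 3, Tead4, Yap1, Cyr61 and the dim Ankrd1 were lower in it. The part of hair follicle cells in these values was not tested, and a change in cell numbers and a change in RNA per cell cannot be told apart in whole epidermis. Immediate early genes respond within minutes to tissue handling and share inducers with Cyr61 and Ctgf. Among all gene names, those with only dim probes included, 3.95% rose at an adjusted p under 0.05. Of 14 immediate early genes, 3 did. These were Egr1 (0.99, adjusted p = 0.00969), Ier3 (0.83, adjusted p = 0.0242) and Zfp36 (0.91, adjusted p = 0.0113, dim everywhere), and the lowest was Jun at -0.16. The median of the list was 0.17 for pair 1 against 0.56 for pair 2, and Cyr61 was likewise higher in pair 2, though Ctgf was lower there. Their part in the target genes was not tested.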

How the data were processed

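Two-colour Agilent arrays compared SOX11-induced with control epidermis in 2 littermate pairs. Per the file headers, scans were read with Agilent Feature Extraction 10.7.3.1, with probe positions on mm9. The deposited intensity values are the brightness of each spot and its local background, in scanner units, not normalized, and the files also hold intensity values that the scanner software had corrected for background and dye. A deposited table of log2 ratios (Cy5 over Cy3) for the series was made by the authors with normexp (offset of 16) and loess. It matched the same steps run on median spot signals with a correlation of 1 and largest differences of 5.5e-05 and 0.00046. The methods mention a colour swap and a dye correction by ComBat, and the labels show neither.

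Mean spot intensity was corrected with limma 3.58.1 in R 4.3.3 by normexp (offset 16) and normalized by loess. Control spots and 194 and 186 flagged spots were left out and spots of a probe were averaged. For each of 55676 probes, a fit with only an intercept was made with moderated variances (8.14 prior degrees of freedom, prior SD 0.223), with Benjamini-Hochberg adjustment over all probes. With 2 arrays an exact sign-flip test gives no p below 0.5, so calls rest on that prior. The 95% intervals use the moderated errors. The number of arrays limits the precision. Per-channel signals were scaled with limma's Aquantile after loess. Where both control channels of a probe were dim, an "at least" fold sets the SOX11 mean against a floor on each array. The floor is the higher of the probe's own control signal and the lowest control signal well above background. Such a fold is open to dye bias and holds for the offset of 16 alone. A probe was above background where the software marked at least 0.5 of its spots so. The code was tested on simulated data.

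All probes of the member genes are named. Of the other lists, each gene with a probe at an adjusted p under 0.05 and the highest and lowest are named. A few further genes (Stk3, Stk4, Lats1, Lats2, Nf2, Axl, F3, Col1a1, Col1a2, Col3a1, and markers named as dim) were added after their values were seen. One probe stands for a gene in medians, the brightest. The members and lists were chosen with earlier results of these data known. Names are those of the array files, and Cyr61 was matched to RefSeq as Ccn1. Alternatives were an offset of 50, median spot signal, median centring, the scanner's processed signals, a fit over probes above background alone, the series table, a linear 1.5-fold threshold and leaving out either pair.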

Additional observations from a re-analysis of the deposited data

How the results depend on the processing

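The result for Tead2 held its direction in every alternative run, and both probes were called in all those with a test except with the scanner's processed signals. Tead1 probes 1 and 3 likewise passed the adjusted test in all of these but that one. Dchs1 lost its call by size at an offset of 50, with median spot signal and in the series table. With the scanner's processed signals, 0 probes were called higher and 0 lower, 0 of the 13 probes of interest were called and 0 passed an adjusted p of 0.05 (5 at an unadjusted p), and 0 Hippo pathway genes and 0 other targets rose. Ankrd1, dim everywhere, turned to -0.072 there. The cause was not tested. With median centring, 794 probes were called higher and 9 lower, 11 of the 13 probes passed an adjusted p of 0.05, as did 32.3% of all probes (4.25% in the reported fit), 19 pathway genes rose and 1 fell, 8 other targets rose and 3 fell, and Ctgf turned to 0.35. By construction, median centring does not remove a trend of the ratio with brightness. With an offset of 50, 31 probes were called lower, 2 pathway genes fell, 5 other targets rose and 2 fell, and Yap1 and Cyr61 passed the adjusted test. In the fit over probes above background alone, 1 pathway gene fell. At a linear 1.5-fold threshold, 1614 probes were called higher and 754 lower, and 4 probes of interest, the 2 of Tead2 and Tead1 probes 1 and 3. Median spot signal and the series table kept all counts within 1.5 times. Without replicate 1 or 2 no test is left, since 1 array has no spread. By size alone, without replicate 1 and without replicate 2, the probes past 1.5 ranged from 212 to 460 higher and from 62 to 90 lower, the higher of each without replicate 2. The 2 Tead2 probes were past 1.5 either way. The fit is already on within-pair ratios, so no further block was added. Ctgf was 0.29 without replicate 2 and -0.65 without replicate 1. Over the 6 alternatives with a refit, of the values for single probes 111 kept their side of the threshold, 9 passed it newly, 14 no longer passed it and 2 turned. Dim probes have no reliable ratio at any setting.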
